A study of Mus musculus with 8 samples.

Results

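The 10 genes described here are the metallothioneins Mt1 and Mt2, the transcription factor Nfe2l2 (also called Nrf2), and the antioxidant genes Hmox1, Nqo1, Txnrd1, Srxn1, Gclc, Gclm and Sod2. They were picked by symbol from the 47643 genes of the expression table, and each symbol was found once. All 10 passed the filter on low expression (a mean of at least 0.5 TPM over the libraries), as did 14229 genes in all. RNA was sequenced from the quadriceps of mice labelled C57BL/6, which per the methods were backcrossed to C57BL/6J, with 1 library from each of 8 mice, of which 4 were labelled Nup210-/- and the other 4, the controls, Nup210+/+. Nup210 encodes a transmembrane protein of the nuclear pore. The knockout line is constitutive: exon 2, flanked by loxP sites, was removed with an Hprt Cre, so the deletion is not limited to muscle fibers. No treatment is named for either genotype, and the age and sex of these mice are not given in the sources used here. Expression is in TPM (transcripts per 1000000), which corrects for transcript length and brings each library to the same total.

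Metallothioneins are small cysteine-rich proteins that bind zinc and copper. Their genes are switched on by the zinc sensor Mtf1, which binds metal response elements (MRE), and also by glucocorticoids. Nfe2l2 is held in the cytoplasm and marked for degradation by Keap1, and under oxidative or electrophilic stress it enters the nucleus and binds antioxidant response elements (ARE) with a small Maf partner. Its targets make glutathione, repair oxidised proteins and detoxify quinones, and in skeletal muscle they are known for their response to the oxidants of contraction. Since much of the control of Nfe2l2 acts on the protein, its mRNA level does not measure its activity.

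The sequence before the start of both metallothionein genes is shown because the metal response element is the shared feature of their control. RefSeq windows (GRCm38.p6) of 300 bases, from 250 bases before to 50 bases after a gene start, were used for 8 of the 10 genes. Windows of Gclc and Hmox1 were not analysed here. The core of the metal response element was searched as TGCACNC or TGCGCNC and that of the antioxidant response element as TGACNNNGC, on both strands, and positions are counted from the RefSeq start, whose first base is 1. Matches to the MRE core are in capitals in the stretches chr8:94178839-94179081 (Mt1) and chr8:94172368-94172617 (Mt2), both on the plus strand and ending before the first annotated base of the gene.
Mt1: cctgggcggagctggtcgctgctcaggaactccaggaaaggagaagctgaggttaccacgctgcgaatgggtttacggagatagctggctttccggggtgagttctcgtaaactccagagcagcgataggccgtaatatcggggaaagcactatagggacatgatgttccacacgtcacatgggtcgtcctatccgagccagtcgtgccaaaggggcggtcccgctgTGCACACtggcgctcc
Mt2: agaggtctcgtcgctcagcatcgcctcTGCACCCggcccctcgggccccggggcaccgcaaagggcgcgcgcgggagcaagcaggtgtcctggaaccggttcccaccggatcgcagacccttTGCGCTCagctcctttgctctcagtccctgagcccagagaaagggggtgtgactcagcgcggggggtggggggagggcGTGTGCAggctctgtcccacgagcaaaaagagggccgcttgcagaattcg
The Mt1 window held 3 MRE cores, starting at bases -23, 3 and 21, and the Mt2 window held 4, at bases -223, -128, -50 and 5. Among all 32851 windows of this length, 25.7% held at least 1 MRE core, 1.97% held at least 3 and 0.517% held at least 4. Gclm also held 3 MRE cores and Srxn1 held 1.

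The ARE core was found in 5 of the 10 windows of these 8 genes (1 for each gene and 3 for Txnrd1) and in 12.4% of all windows. Each match is printed with its core in capitals and 8 bases on either side, on the strand that carries the motif. The 10 genes were picked by symbol, and these matches are shown because Nfe2l2 binds this element. They lie at chr8:94172531-94172555 (plus strand) for Mt2, chr2:75704887-75704911 (minus) for Nfe2l2, chr10:82859106-82859130 (minus) for Txnrd1, chr3:122245415-122245439 (minus) for Gclm and chr2:152105544-152105568 (minus) for Srxn1.
Mt2: agggggtgTGACTCAGCgcgggggg
Nfe2l2: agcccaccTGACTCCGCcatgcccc
Txnrd1: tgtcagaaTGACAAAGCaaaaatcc
Gclm: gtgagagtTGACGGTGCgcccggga
Srxn1: tctcactcTGACCTAGCtgcccact
The cores began at base -79 in Mt2, -240 in Nfe2l2, -92 in Txnrd1 and -134 in Gclm, and at base 29, after the start, in Srxn1. In Gclm the ARE core overlapped an MRE core. The Txnrd1 match belongs to the window of 1 of its 3 listed starts. Neither core was found in the windows of Nqo1 and Sod2. A match says only that these letters are present in a window. An absence says nothing of sequence more than 250 bases before or more than 50 bases after the start, which was not searched.

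Between 18185 and 19357 genes were above 0 TPM in a library. The number of reads behind the values is unknown, so precision rests on the spread between mice. Nup210 mRNA was at 8.81 to 11.93 TPM in the libraries labelled Nup210-/- and 5.71 to 10.11 TPM in those labelled Nup210+/+ (log2 difference 0.44, SE 0.147, limma adjusted p = 0.231). A gene-level value does not measure the deleted exon, so it does not check the genotype, and every direction given here rests on the labels. All 8 skeletal muscle fiber markers were present, with a summed level of 85181.64 to 91138.73 TPM in libraries labelled Nup210-/- and 78728.81 to 83806.10 TPM in those labelled Nup210+/+. A Nup210+/+ library, replicate 2, stood apart with a summed 381.69 TPM of granulocyte precursor markers, against at most 2.12 TPM in any other library, and another, replicate 3, was the highest in macrophage markers (458.74 TPM). In bulk tissue, fewer cells of a type and less RNA per cell cannot be told apart.

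The question was whether the genes of these stress responses differed between the genotypes. Of the 10 genes, Srxn1 alone was separated. Its mean TPM as deposited, before the scaling used for the tests, was 0.723 times as high in Nup210-/- as in Nup210+/+ libraries. None of the 10 passed an adjusted p of 0.05 (limma, Benjamini-Hochberg over the 14229 genes), where 0.112% of all genes did. At an unadjusted p under 0.05, 1 of the 10 was past the threshold (Srxn1), beside 14.2% of all genes. In 1 of the 10, again Srxn1, the genotypes did not overlap, beside 9.38% of all genes in either direction and 4.6% in the lower direction. A count of 1 in 10 lies near these backgrounds, so the counts by themselves show nothing particular to the 10 genes. The estimates were higher in Nup210-/- for 6 genes and lower for 4, with a median log2 difference of 0.06, beside -0.01 over all genes. This split depended on the scaling: with TPM as deposited, Nqo1, Txnrd1 and Sod2 were lower instead of higher. The median was then -0.03, beside -0.08 over all genes.

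**Figure D1:**
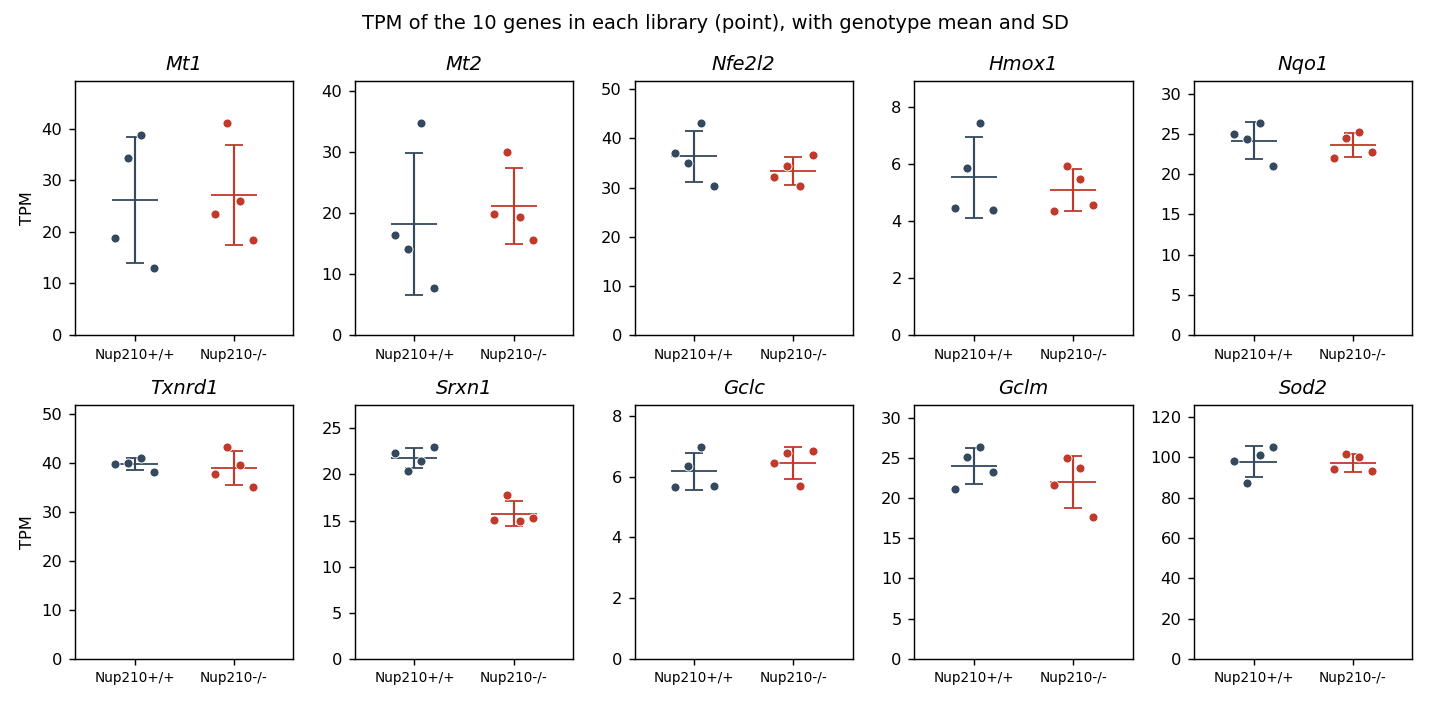
TPM (y axis, from 0) of each of the 10 genes in the 4 Nup210+/+ and 4 Nup210-/- libraries (points), with the genotype mean (long bar) and SD (short bars). The points of Srxn1 do not overlap between genotypes, those of the other 9 genes do, and Mt1 and Mt2 are the most spread.

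Mt1 (ENSMUSG00000031765, chr8:94179082-94180327, plus strand) and its neighbour Mt2 (ENSMUSG00000031762, chr8:94172664-94173568, plus strand), coordinates on GRCm38 as for the genes below, were the most variable of the 10. Mt1 was at 23.40, 41.02, 25.94 and 18.50 TPM in Nup210-/- replicates 1 to 4 and at 18.83, 34.27, 38.71 and 13.03 TPM in Nup210+/+ replicates 1 to 4. Its highest library was thus a Nup210-/- and its lowest a Nup210+/+ library, and the genotypes overlapped over most of their range. The means were 27.2 ± 9.71 TPM (SD, n = 4) for Nup210-/- mice and 26.2 ± 12.2 TPM for the controls. TPM were then scaled by a factor for each library, and log2 differences here are all on the log2(scaled TPM + 1) scale, as Nup210-/- minus Nup210+/+. On that scale Mt1 differed by 0.21 (95% interval -0.50 to 0.92, limma adjusted p = 0.793).

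For Mt2, the levels were 19.84, 29.94, 19.36 and 15.50 TPM in Nup210-/- replicates 1 to 4 and 16.34, 14.12, 34.66 and 7.68 TPM in Nup210+/+ replicates 1 to 4. The Nup210+/+ libraries alone spanned a 4.51-fold range, from the lowest to the highest of all 8, and enclosed every Nup210-/- library. The means were 21.2 ± 6.17 and 18.2 ± 11.6 TPM (SD, n = 4 each), a log2 difference of 0.45 (95% interval -0.32 to 1.22, limma adjusted p = 0.576). These intervals do not exclude a change of either gene in either direction. The exact permutation test over the 70 labelings gave p = 0.571 for Mt1 and p = 0.343 for Mt2 (two-sided, on the log2 scale). Leaving out a single library moved both estimates by more than 1.5 times in 3 cases: without Nup210+/+ replicate 4 they were -0.03 for Mt1 and 0.16 for Mt2, without Nup210+/+ replicate 3 they were 0.39 and 0.77, and without Nup210-/- replicate 2 they were 0.01 and 0.28. The exons of Mt2 overlap those of Gm45774 on the opposite strand, and whether the authors counted by strand is not stated. Mt1 and Mt2 are also similar in sequence, and how reads that fit both were shared was not tested.

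Both metallothioneins varied together in part. Over the 8 libraries, Pearson's r of their log2 levels was 0.799 and Spearman's rho 0.714, a description over libraries that share their total. The ratio of Mt1 to Mt2 was 1.18, 1.37, 1.34 and 1.19 in Nup210-/- replicates 1 to 4 and 1.15, 2.43, 1.12 and 1.70 in Nup210+/+ replicates 1 to 4. Mt1 exceeded Mt2 in each library, and the ratio was highest in Nup210+/+ replicate 2, the library with granulocyte precursor markers, whose part in that ratio was not tested. The other metallothionein genes were at or near 0: Mt4 was at 0 in all 8 libraries and Mt3 between 0.21 and 0.74 TPM.

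**Figure D2:**
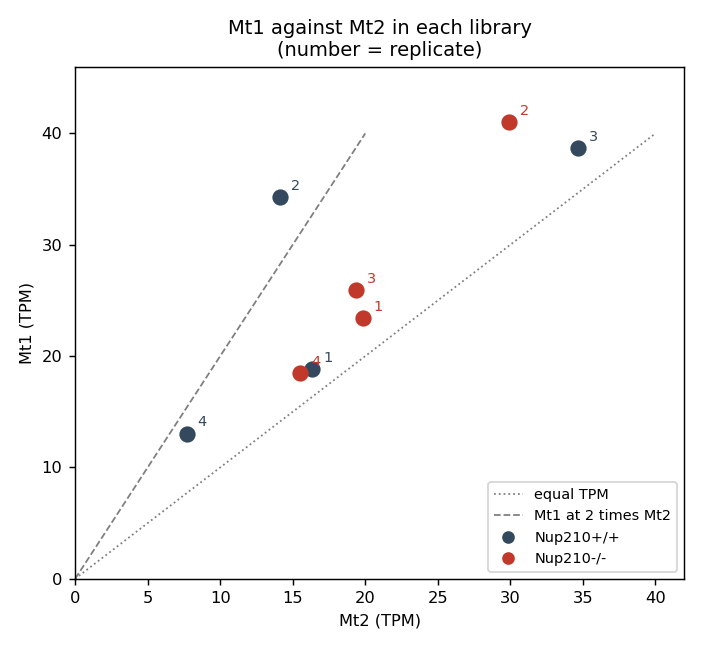
Mt1 (y axis, TPM) against Mt2 (x axis, TPM) in the 8 libraries (points, numbered by replicate and coloured by genotype), with lines for equal levels and for Mt1 at 2 times Mt2. The Nup210-/- points lie between 15.50 and 29.94 TPM of Mt2, inside the range of the Nup210+/+ points, and Nup210+/+ replicate 2 lies farthest above the line of equal levels.

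Of 10 tested genes that handle zinc or sense metals, 7 estimates were lower and 3 higher in Nup210-/-, with a median of -0.07. None passed an adjusted p of 0.05 (limma), and 1 of 10, Slc39a10, had an unadjusted p under 0.05, beside 14.2% of all genes. Their largest estimate was that of Slc30a1, the zinc exporter that Mtf1 also controls, at 0.23 (95% interval -0.08 to 0.54, limma adjusted p = 0.477). The smallest was that of Slc39a10, a zinc importer of the cell surface, at -0.43 (95% interval -0.78 to -0.07, limma adjusted p = 0.27). Mtf1 itself was at 5.53 ± 0.495 TPM (SD, n = 4) in the Nup210-/- libraries and 6.09 ± 0.167 TPM in the controls. After scaling its log2 difference was -0.04 (95% interval -0.21 to 0.13, limma adjusted p = 0.832).

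Nfe2l2 (ENSMUSG00000015839, chr2:75675513-75704641, minus strand) was at 32.08, 34.40, 30.31 and 36.71 TPM in Nup210-/- replicates 1 to 4. In Nup210+/+ replicates 1 to 4 it was at 37.02, 34.96, 43.06 and 30.42 TPM. The genotypes overlapped, with both the highest library and the second lowest in Nup210+/+. The log2 difference was -0.02 (95% interval -0.22 to 0.18, limma adjusted p = 0.938), and its sign changed under 3 of 18 alternative settings. A list of genes for the control of Nfe2l2, its partners and related factors gave 7 higher and 4 lower estimates of 11 tested, with a median of 0.08. None passed an adjusted p of 0.05 (limma), and 1 of 11, which was higher, had an unadjusted p under 0.05, beside 14.2% of all genes. From TPM as deposited, 5 of the 11 were higher and 6 lower (median -0.01). Keap1, the adaptor that marks Nfe2l2 for degradation, was at 29.7 ± 1.5 TPM (SD, n = 4) in the Nup210-/- libraries and 29.7 ± 1.82 TPM in the controls. At the ends of this list stood Nfe2l1, a related factor that controls proteasome genes, at 0.23 (95% interval -0.04 to 0.50), and Maff, a small Maf partner, at -0.35 (95% interval -0.71 to 0.01). Neither passed the test (limma adjusted p = 0.416 and 0.365), and without Nup210+/+ replicate 3 the estimate of Nfe2l1 was 0.15.

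Hmox1 (ENSMUSG00000005413, chr8:75093621-75100589, plus strand), which breaks haem down to biliverdin, iron and carbon monoxide, was the lowest of the 10. It was at 4.35, 5.92, 5.47 and 4.57 TPM in Nup210-/- replicates 1 to 4 and 4.44, 5.85, 7.42 and 4.40 TPM in Nup210+/+ replicates 1 to 4. In both genotypes 2 libraries lay below 5 TPM, and the highest was Nup210+/+ replicate 3, the library with the most macrophage marker RNA, whose part in the Hmox1 level was not tested. The log2 difference was -0.01 (95% interval -0.30 to 0.29, limma adjusted p = 0.989), with a sign that changed under 6 of 18 alternatives. Across the 8 libraries, as a description without a test, the log2 levels of Hmox1 had r = 0.834 and rho = 0.857 with those of Mt1, and r = 0.159 and rho = 0.095 with those of Nfe2l2. The pair of Hmox1 and Mt1 had the highest r and rho of all pairs among the 10 genes. Nqo1 (ENSMUSG00000003849, chr8:107388225-107403206, minus strand), which reduces quinones, lay between 21.98 and 25.30 TPM in the Nup210-/- libraries and between 20.97 and 26.32 TPM in the controls. Its log2 difference was 0.06 (95% interval -0.07 to 0.20, limma adjusted p = 0.644). Of the 12 tested genes of haem and iron handling, 6 estimates were higher and 6 lower, from -0.42 for Cd163, the macrophage receptor for haemoglobin, to 0.21 for Slc40a1, the iron exporter. None of them passed an adjusted p of 0.05 (limma), and 1 of 12, which was lower, had an unadjusted p under 0.05, beside 14.2% of all genes. From TPM as deposited, 3 of the 12 were higher and 9 lower (median -0.12). Without Nup210+/+ replicate 3 the estimate of Cd163 was -0.21.

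Srxn1 (ENSMUSG00000032802, chr2:152105516-152111376, plus strand) encodes sulfiredoxin, which restores peroxiredoxins that peroxide has over-oxidised. It was at 15.04, 17.73, 14.94 and 15.27 TPM in Nup210-/- replicates 1 to 4 and at 22.33, 20.42, 21.44 and 22.97 TPM in Nup210+/+ replicates 1 to 4. Every Nup210-/- library lay below every Nup210+/+ library, and replicate 2 of each genotype, at 17.73 and 20.42 TPM, stood nearest to the gap. After scaling the nearest were Nup210-/- replicate 2, at 18, and Nup210+/+ replicate 3, at 19.1. The means were 15.7 ± 1.33 and 21.8 ± 1.11 TPM (SD, n = 4 each), and the log2 difference was -0.36 (SE 0.0893, 95% interval -0.56 to -0.16). Its unadjusted limma p was 0.00308 and its adjusted p 0.154, so the difference did not pass the test across all genes. The exact permutation test gave p = 0.0286 (two-sided), which is the smallest that 4 libraries against 4 allow. Under 18 alternative settings the estimate ran from -0.45 to -0.30 and was lower in each, without passing the adjusted threshold in any. When Nup210+/+ replicates 1 to 4 were left out in turn, the estimate was -0.34, -0.39, -0.40 and -0.30.

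Markers of other cells also had lower estimates in Nup210-/-. This held for all 11 macrophage markers, 7 of them without overlap beside 4.6% of all genes. Their summed level was 183.40 to 209.05 TPM in the Nup210-/- libraries and 216.91 to 458.74 TPM in the controls. Under some alternatives 10 of the 11 were lower: upper-quartile scaling and a pseudocount of 0.1. The same held on leaving out Nup210-/- replicate 2 or 4, or Nup210+/+ replicate 1, 2 or 3. The 4 fibroblast markers summed to 526.39 to 634.62 TPM in the Nup210-/- libraries and 658.79 to 1047.73 TPM in the controls. After scaling, 1 of these 4, Col3a1, was without overlap, and Dcn, which makes up most of the sum, overlapped. No marker of either list was at 0 in all libraries and none passed an adjusted p of 0.05 (limma). Their part in the Srxn1 difference was not tested.

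Txnrd1 (ENSMUSG00000020250, chr10:82833951-82897712, plus strand), the cytosolic reductase that keeps thioredoxin reduced, is the other enzyme of thiol repair among the 10. It lay between 35.09 and 43.26 TPM in the Nup210-/- libraries and between 38.16 and 41.03 TPM in the controls, so the Nup210-/- libraries enclosed all those of Nup210+/+. The log2 difference was 0.06 (95% interval -0.08 to 0.20, limma adjusted p = 0.695). Its coefficient of variation over the 8 libraries was 6.13%, against 38.3% for Mt1 and 44.4% for Mt2.

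Gclc (ENSMUSG00000032350, chr9:77754535-77794485, plus strand) and Gclm (ENSMUSG00000028124, chr3:122245557-122270732, plus strand) encode the catalytic and the modifier subunit of glutamate-cysteine ligase, which makes the precursor of glutathione. Gclc lay between 5.70 and 6.83 TPM in the Nup210-/- libraries and between 5.67 and 6.97 TPM in the controls, with a log2 difference of 0.14 (95% interval -0.06 to 0.34, limma adjusted p = 0.505). Gclm lay between 17.71 and 24.96 TPM in the Nup210-/- libraries and between 21.19 and 26.36 TPM in the controls, with a log2 difference of -0.03 (95% interval -0.25 to 0.18, limma adjusted p = 0.899). The modifier subunit mRNA was thus above the catalytic one in each library, by 2.59 to 4.17 times in Nup210-/- and 3.74 to 4.09 times in Nup210+/+. The lowest ratio was that of Nup210-/- replicate 4, which also had the least Gclm. The exons of Gclm overlap those of Gm17494 on the opposite strand and Gm6061 on the same strand, so its level is uncertain where reads were split.

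Sod2 (ENSMUSG00000006818, chr17:13006846-13040063, plus strand), the manganese superoxide dismutase of mitochondria, was the highest of the 10 and varied least over the 8 libraries (coefficient of variation 5.88%). It lay between 93.00 and 101.41 TPM in the Nup210-/- libraries and between 87.31 and 105.09 TPM in the controls. The log2 difference was 0.09 (95% interval -0.09 to 0.27, limma adjusted p = 0.647). For Nqo1, Txnrd1 and Sod2 the mean TPM as deposited was slightly lower in Nup210-/-, and without the scaling their log2 differences were -0.03, -0.03 and -0.01.

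**Figure D3:**
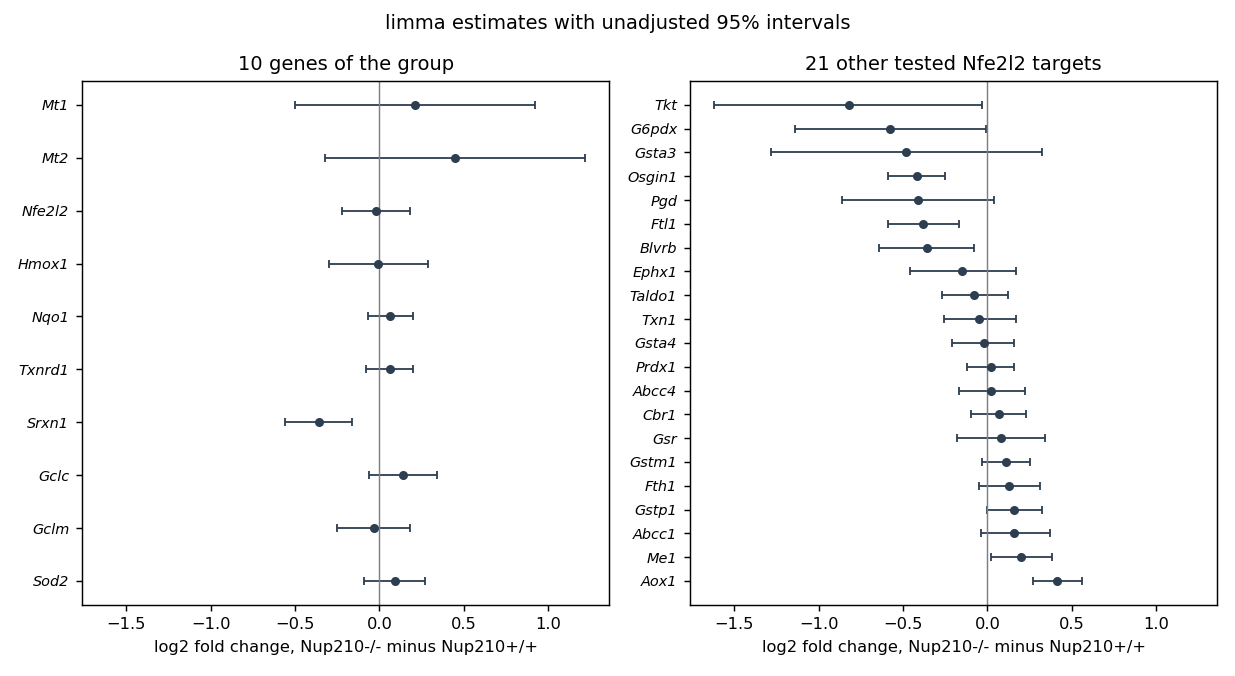
Log2 difference (x axis, Nup210-/- minus Nup210+/+) with its unadjusted 95% interval from limma for the 10 genes and for 21 other Nfe2l2 targets. Among the 10, the interval of Srxn1 (-0.56 to -0.16) alone lies wholly on one side of 0, and those of Mt1 and Mt2 are the widest.

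On the TPM scale, which is per transcript length, the means over the 8 libraries ordered the genes as Sod2 (97.5), Txnrd1 (39.4), Nfe2l2 (34.9), Mt1 (26.7), Nqo1 (23.9), Gclm (23), Mt2 (19.7), Srxn1 (18.8), Gclc (6.3) and Hmox1 (5.3). Sod2 exceeded Txnrd1 and Srxn1 exceeded Gclc in 8 of 8 libraries without overlap of their ranges. The other neighbours in this order overlapped: Txnrd1 exceeded Nfe2l2 in 6 of 8 libraries, Mt1 exceeded Nqo1 in 5 and Nqo1 exceeded Gclm in 4. Srxn1 lay next to Mt2 in mean level but had a far smaller spread.

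A further 21 of 25 listed Nfe2l2 targets passed the expression filter. Their estimates were split between the directions, with 10 higher and 11 lower, a median of -0.02, and none past an adjusted p of 0.05 (limma). At an unadjusted p under 0.05, 2 were higher and 5 lower, which is 7 of 21 beside 14.2% of all genes. The split depended on the scaling: with TPM as deposited, 6 of the 21 were higher and 15 lower. Their median was then -0.11, beside -0.08 over all genes. In the scaled fit, the largest estimate was that of Aox1, an aldehyde oxidase. Aox1 was at 10.21, 11.71, 11.57 and 10.86 TPM in Nup210-/- replicates 1 to 4 and 8.48, 8.56, 9.39 and 8.09 TPM in Nup210+/+ replicates 1 to 4. Each Nup210-/- library was above each Nup210+/+ library, with a log2 difference of 0.41 (95% interval 0.27 to 0.56, limma adjusted p = 0.054). It passed the threshold under 2 alternatives: a filter at a mean of 1 TPM (adjusted p = 0.0487) and library weights (adjusted p = 0.0331).

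The smallest estimate was that of Tkt, a transketolase of the pentose phosphate pathway, which supplies NADPH for these reductases. Tkt was at 7.71, 7.98, 11.94 and 7.80 TPM in Nup210-/- replicates 1 to 4 and 18.63, 33.36, 19.57 and 7.04 TPM in Nup210+/+ replicates 1 to 4. Nup210+/+ replicate 2 was the highest and replicate 4 the lowest of all libraries, so the genotypes overlapped, and the part of the granulocyte precursor RNA in replicate 2 was not tested (log2 difference -0.82, 95% interval -1.62 to -0.03, limma adjusted p = 0.335). Without Nup210+/+ replicate 2 the Tkt difference was -0.52. Osgin1 and Ftl1, chosen here after their values were seen, were the other targets without overlap. Osgin1, an oxidative stress-induced growth inhibitor, was at 8.76, 7.62, 8.30 and 7.67 TPM in Nup210-/- replicates 1 to 4 and 12.69, 11.99, 12.04 and 10.90 TPM in Nup210+/+ replicates 1 to 4. Like Srxn1 it was lower in each Nup210-/- library (log2 difference -0.42, 95% interval -0.59 to -0.25, limma adjusted p = 0.0825). Ftl1, the light chain of the iron store ferritin, was at 225.61 to 239.74 TPM in the Nup210-/- libraries and 257.19 to 386.26 TPM in the controls (log2 difference -0.38, 95% interval -0.59 to -0.17, limma adjusted p = 0.154). Ftl1 has processed copies in the mouse genome, and how reads were shared with them was not tested.

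Of 37 other antioxidant enzymes (superoxide dismutases, catalase, peroxiredoxins, glutathione peroxidases and transferases and related genes), 19 estimates were higher and 18 lower, with a median of 0.01. None passed an adjusted p of 0.05 (limma), and 4 higher and 2 lower, 6 of 37, had an unadjusted p under 0.05, beside 14.2% of all genes. For 35 of them the directions were also taken from TPM as deposited, where 8 were higher and 27 lower. Their median was then -0.07, beside -0.08 over all genes. Cat, the catalase that breaks down hydrogen peroxide, was at 75.67, 91.82, 75.01 and 80.04 TPM in Nup210-/- replicates 1 to 4 and 61.90, 54.90, 79.20 and 63.43 TPM in Nup210+/+ replicates 1 to 4. The deposited TPM overlapped at Nup210+/+ replicate 3, and after scaling they did not (log2 difference 0.41, 95% interval 0.18 to 0.64, limma adjusted p = 0.151). Sod3, the extracellular superoxide dismutase, was at the other end with 6.05 ± 0.765 TPM (SD, n = 4) in the Nup210-/- libraries and 8.97 ± 3.17 TPM in the controls. Its log2 difference was -0.37 (95% interval -0.74 to -0.01, limma adjusted p = 0.346), and the highest library, at 13.62 TPM, was Nup210+/+ replicate 3, without which the difference was -0.21.

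**Figure D4:**
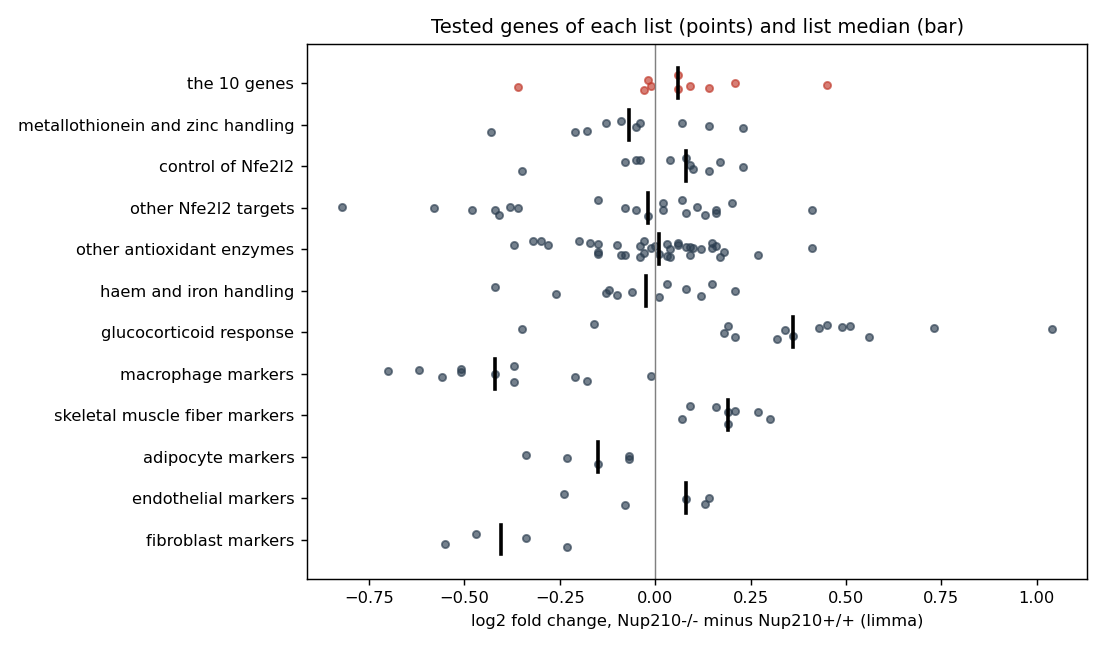
Log2 difference (x axis, Nup210-/- minus Nup210+/+) of each tested gene (points) in the 10 genes and in lists of related genes and cell markers, with the list median (bar). The lists of granulocyte precursor and neutrophil markers are not drawn. The points of the 10 genes and of the antioxidant lists lie on both sides of 0. The 11 macrophage markers lie below it (10 of them under some alternative settings) and 13 of the 15 glucocorticoid response genes above it.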

How the data were processed

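RNA from the quadriceps of 8 mice, 4 labelled Nup210-/- and 4 labelled Nup210+/+, was measured by polyadenylated RNA sequencing, read from a single end in directional libraries. Per the methods and the submitters' processing notes, the authors trimmed reads with cutadapt 2.3, aligned them to mm10 with STAR 2.7.0d, estimated expression with RSEM 1.3.1 using Ensembl annotations, and deposited TPM per gene and library. Whether strand entered the counting is not stated. TPM are relative to the library total and to transcript length and keep no depth, so no interval for a single library is given. Each mouse is a replicate.

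For each library a median-of-ratios factor was taken from the 15225 genes detected in every library (factors 0.936 to 1.12), and TPM were divided by it. Genes entered the test at an average of 0.5 TPM or more, which kept 14229. limma 3.58.1 (R 4.3.3) was fitted to log2(scaled TPM + 1) with genotype alone and a trended eBayes, and p-values were adjusted by Benjamini-Hochberg over those genes, with a threshold of 0.05. A log2 difference on this scale understates the change of low genes. The study's own count test could not be run on TPM. Each of the 10 genes was also given a two-sided exact permutation p from all 70 labelings. This fit was first run on simulated data with known changes. Recovery was required there only at changes larger than any estimated for the 10 genes.

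The 10 genes, the lists and the rule for naming genes were chosen with earlier results of these data known. The rule named the 10 genes, Nup210, the called genes and the extreme tested genes of each list, and the 5 genes most correlated with Mt1, Nfe2l2 and Hmox1. Of these correlated genes, 1 is not reported here. Mtf1, Keap1, Mt3, Mt4, Osgin1, Ftl1 and Fkbp5 are named outside it, after their values were seen. No gene of any list was called. The lists were metallothionein and zinc handling, control of Nfe2l2, other Nfe2l2 targets, other antioxidant enzymes, haem and iron handling, glucocorticoid response, and markers of macrophages, granulocyte precursors, neutrophils, muscle fibers, adipocytes, endothelium and fibroblasts. Gene coordinates and exons are from GENCODE M21 on GRCm38 (mm10), promoter windows from RefSeq on GRCm38.p6. The alternatives tried were each library left out in turn, the replicate number as a block, library weights, eBayes robust or with no trend, upper-quartile or no scaling, a filter at 1 TPM or at any detection, and a pseudocount of 0.5 or 0.1.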

Additional observations from a re-analysis of the deposited data

Results flagged for a closer look

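Srxn1 in Nup210-/- replicate 2 (17.73 TPM) stood above the other libraries labelled Nup210-/-, with a gap of 0.882 of the range of the 4 values, above the 95% critical value of Dixon's test for 4 samples. Its value remained below every Nup210+/+ library, and without it the log2 difference of Srxn1 was -0.40 (limma adjusted p = 0.211). This was 1 of 22 sets of 4 values examined, and chance gives such a gap in about 1 in 20 sets.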

How the results depend on the processing

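Under the 18 alternatives, 0 of 180 values for the 10 genes were past an adjusted p of 0.05 (limma). The lowest adjusted value was 0.0746, of Srxn1 with library weights. At an unadjusted p under 0.05, 1 or 2 of the 10 were past it in each. Srxn1, Mt2 and Gclc kept the sign of their estimate in all 18, while the sign changed for Hmox1 in 6, Nfe2l2 in 3, Gclm in 2, and Mt1, Nqo1, Txnrd1 and Sod2 in 1 each. With TPM as deposited the median of the 10 genes was -0.03, beside -0.08 for all genes. Leaving out each library in turn, 1 to 2 of the 10 genes had genotypes without overlap: Srxn1 each time, and Gclc without Nup210-/- replicate 3, Mt2 without Nup210+/+ replicate 3 or Sod2 without Nup210+/+ replicate 4. The share of all genes without overlap was then 12.2 to 18.4%.

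Over all genes, 16 were called, and that number moved with the settings: 1 with genes above 0 TPM in any library, 27 at a mean of 1 TPM, 84 with library weights, and 0 with upper-quartile scaling (limma, 2071 at an unadjusted p under 0.05) or without the trend (1952). Leaving out each library in turn gave 0 to 10 (1575 to 2681 at an unadjusted p under 0.05). The cause was not tested. The replicate numbers are shared between genotypes but name different mice, and deviations of same-numbered libraries had correlations of -0.033, 0.005, 0.019 and 0.086. With the replicate number as a block, 0 genes were called (1850 at an unadjusted p under 0.05). Of 465 values for the 26 other list genes named by the rule, 463 kept their side of the threshold, and the other 2 were those of Aox1. With 4 mice a genotype and no counts, the intervals of Mt1 and Mt2 leave differences of either sign possible.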

Other observations

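Metallothionein genes also respond to glucocorticoids, and a list of 15 such genes leaned to higher estimates in Nup210-/-: 13 were higher and 2 lower, with a median log2 difference of 0.36. None passed an adjusted p of 0.05 (limma, lowest 0.181), while 8 higher and 1 lower had an unadjusted p under 0.05, beside 14.2% of all genes. Pdk4, which slows the entry of pyruvate into the mitochondrion, had the largest estimate. Pdk4 was at 188.50, 120.00, 276.61 and 312.74 TPM in Nup210-/- replicates 1 to 4 and 72.23, 39.60, 361.32 and 135.26 TPM in Nup210+/+ replicates 1 to 4 (log2 difference 1.04, 95% interval -0.30 to 2.38, limma adjusted p = 0.451). The Pdk4 estimate was 0.56 without Nup210+/+ replicate 2 and 1.57 without Nup210+/+ replicate 3. Fkbp5, a co-chaperone of the glucocorticoid receptor, was chosen here after its values were seen. It was at 17.04, 17.68, 11.64 and 13.68 TPM in Nup210-/- replicates 1 to 4 and 6.85, 8.56, 28.51 and 6.77 TPM in Nup210+/+ replicates 1 to 4. The genotypes thus overlapped through Nup210+/+ replicate 3 (log2 difference 0.56, 95% interval -0.27 to 1.38, limma adjusted p = 0.508). Nup210+/+ replicate 3 was the highest library for both genes and for Mt2, and the other 3 Nup210+/+ libraries lay below every Nup210-/- library for Fkbp5. For Mt1, in contrast, the highest library was Nup210-/- replicate 2 (41.02 TPM). Any link of these genes to the levels of Mt1 or Mt2 was not tested. The smallest estimate of the list was that of Zbtb16, at -0.35 (95% interval -0.60 to -0.11, limma adjusted p = 0.203).

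Among all tested genes, those whose log2 levels followed Mt1 most closely over the 8 libraries were Rpl21-ps8 (r = 0.950), Usp18 (0.947), Tmem198b (0.938), Gm10116 (0.933) and Fign (0.930). For Nfe2l2 they included Sco1 (0.955), Ccbe1 (0.951), Fancc (0.929) and Ddx47 (0.916). For Hmox1 they were Angptl2 (0.948), L3mbtl2 (0.936), Med15 (0.934), Fadd (0.932) and Zmpste24 (0.930). These are the highest of 14229 values from 8 libraries that share their totals, and are given as a description with no test. None of the other 9 genes is among them.

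Of the remaining marker lists, the 8 muscle fiber markers had higher estimates in Nup210-/- (median 0.19), although 2 of the 8 were lower with TPM as deposited and 1, Mb, was lower with library weights, without Nup210-/- replicate 4 or without Nup210+/+ replicate 2. The 5 adipocyte markers had lower estimates (median -0.15), but without Nup210+/+ replicate 3, the library highest in them (632.51 TPM), 4 were higher and 1 lower (median 0.11). The 6 granulocyte precursor markers passed the filter through Nup210+/+ replicate 2 alone, and without that library 0 of them did, so their median of -1.45 rests on it. The 2 neutrophil markers that passed had a median of -0.47, which was 0.17 without the same library. Endothelial markers gave 3 higher and 2 lower estimates (median 0.08), and with TPM as deposited 2 higher and 3 lower, the 4 fibroblast markers a median of -0.40 and the 11 macrophage markers a median of -0.42. No marker passed an adjusted p of 0.05 (limma).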
